A study of Mus musculus with 9 samples.

Results

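The genes described here encode the cytosolic translation initiation factors (eIF1 to eIF6) and elongation factors (eEF1 and eEF2) of the mouse, together with the binding partners and modifying enzymes that carry their names. They were chosen by symbol alone, as protein-coding genes of GENCODE release M21 whose symbol begins with Eif1 to Eif6 or with Eef1 or Eef2, leaving out the eIF2 kinases (Eif2ak) and the Y-linked Eif2s3y. The rule found 63 genes among the 53380 rows of each deposited table. It used none of their values, but it was set with earlier results of these data known.

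RNA was sequenced from a mouse leukemia line of the T cell acute lymphoblastic kind (T-ALL), grown out of tumors of EμSRα-tTA/tet-O-MYC mice of the FVB/N strain. In these cells the tetracycline transactivator tTA, under the lymphoid EμSRα promoter, switches on a human MYC transgene (hMYC), and doxycycline stops this. The 9 libraries formed 3 groups of 3, which were harvested at 48 h and were mock treated (MYC on), treated with 20 pg/mL doxycycline (MYC intermediate) or treated with 500 pg/mL doxycycline (MYC off). All groups carried both transgenes and came from cultured leukemia cells, so none stands for a normal T cell. Doxycycline dose and MYC level moved together and cannot be told apart. Whether the cells were a clone is not given in the sources used here, and neither is whether the libraries of a group came from separate cultures, so that p-values speak only of the spread among these libraries, which may be technical.

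Translation begins when eIF2 carries the initiator tRNA to the small ribosomal subunit, where eIF1, eIF1A, eIF3 and eIF5 assemble and select the start codon. The eIF4F complex (the cap-binding eIF4E, the scaffold eIF4G and the helicase eIF4A) brings the mRNA, the 4E-binding proteins compete with eIF4G for eIF4E, and eIF5B joins the large subunit. In elongation, eEF1A delivers aminoacyl-tRNA, the eEF1B subunits recharge eEF1A with GTP, eEF2 moves the ribosome along and eIF5A relieves stalled peptide bonds. MYC is known as a driver of ribosome production and protein synthesis in lymphoid tumors.

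The libraries held 18705516 to 39678799 counts. Levels are given as CPM, the count of a gene per 1000000 counts of its library, and 3 counts, taken as the limit that a count of 0 allows for counting error alone, came to 0.0756 to 0.16 CPM. The transgene followed the labels: hMYC was at 1340.1, 1190.3 and 1249.9 CPM with MYC on, 428, 414 and 383 CPM at the intermediate level and 4.08, 4.01 and 3.26 CPM with MYC off. All 8 T cell markers examined (such as Cd3e and Lck) were detected, with a summed level of 2687 to 2780 CPM with MYC on and 6096 to 6284 CPM with MYC off. The 6 myeloid markers summed to 26.9 to 31.3 CPM with MYC on and 41.1 to 44.1 CPM with MYC off, with Lyz2, Adgre1 and Cd14 at 0 counts in all 9 libraries. Almost all of this sum came from Csf1r and Itgam, whose means moved in opposite directions. Csf1r was at 24.8 CPM with MYC on and 19.5 CPM with MYC off, and Itgam at 3.88 and 22.1 CPM. The 6 stromal and endothelial markers summed to 79.9 to 87.4 and 201 to 219 CPM, almost wholly from Pecam1, with Col3a1, Cdh5 and Kdr at 0 counts. B cell, erythroid and epithelial markers stayed at or under 1.48 CPM in every library. The part of these marker levels in the results was not tested, and in such bulk RNA fewer cells of a type and less RNA per cell cannot be told apart.

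The first comparison asked which of these genes differed between the highest and the lowest MYC level. A filter on low counts left 59 of the 63 genes for testing, and 49 of them (83.1%) were higher with MYC on, 1 (Eif1b) was lower and 9 were not called at an adjusted p under 0.01 (edgeR quasi-likelihood F test). Over all 14098 genes tested, 27.4% were called higher with MYC on, 27.5% lower and 54.9% in either direction. The median log2 fold change was 0.68 over the 59 genes and −0.03 over all genes tested. More than 2-fold higher levels were called for 19 of the 59, against 10.8% of all genes tested. With MYC on, the lowest library lay above the highest MYC off library for 49 of the 59 genes, and the reverse held for 3 (Eif1b, Eif4a3 and Eif4g3). Of all genes tested, 32.8% were higher and 37.2% lower without overlap.

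The 9 genes not called were Eif1 (−0.07), Eif2b2 (0.16), Eif4a2 (0.06), Eif4a3 (−0.12), Eif4e3 (−0.07), Eif4g2 (−0.01), Eif4g3 (−0.19), Eif5a2 (0.29) and Eef1akmt2 (0.03), with the log2 fold change of MYC on over MYC off in parentheses. The 4 genes not tested were Eef1a2 and Eif4e1b, with no count in any library, and Eif4ebp3 and Eef1akmt3, with 6 and 13 counts in all 9 libraries together. Eef1a2 encodes the eEF1A form of muscle and neurons, and Eif4e1b an eIF4E form of oocytes.

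**Figure D1:**
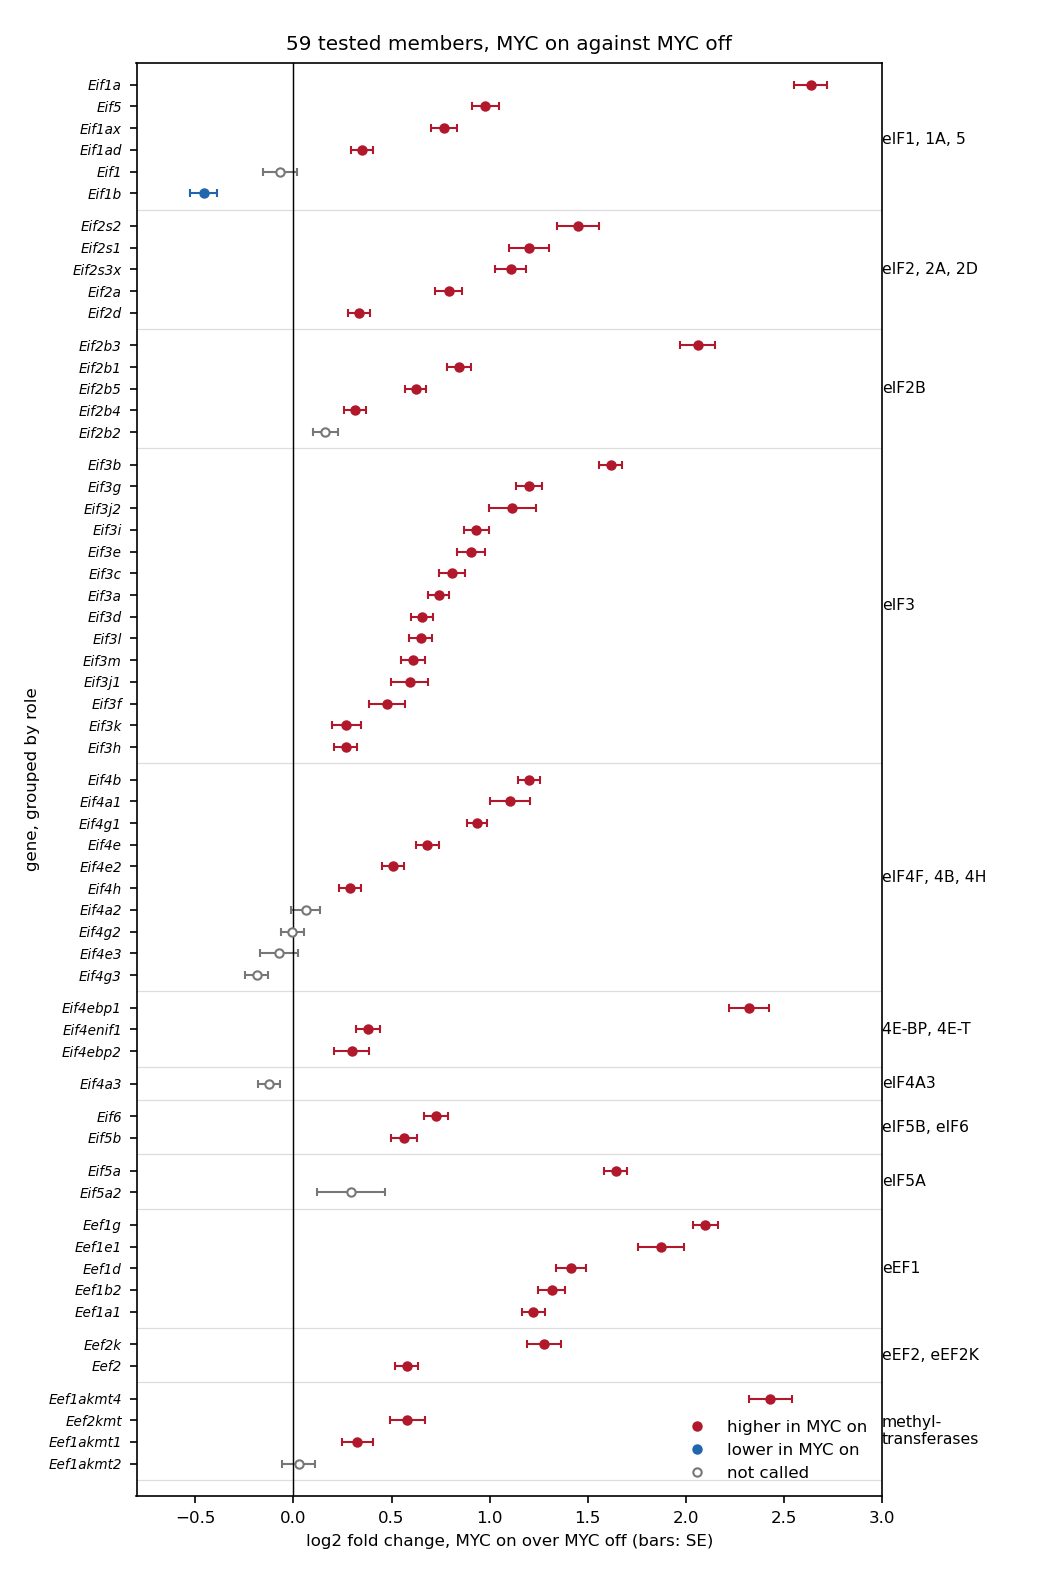
Log2 fold changes of MYC on over MYC off (horizontal axis, with standard errors as bars) for the 59 tested genes, grouped by role and sorted within each role. Filled red points were called higher with MYC on, the filled blue point (Eif1b) was called lower and open points were not called, with a range from −0.46 to 2.64.

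Among the genes for start codon selection and assembly of the preinitiation complex, 4 of 6 were higher with MYC on, 1 was lower and 1 was not called. Eif1a, an autosomal gene for eIF1A, had the largest fold change of the 59 genes. Eif1a was counted at 142, 147 and 132 CPM with MYC on, 70.8, 60.4 and 58.2 CPM at the intermediate level and 23.1, 23.7 and 22.5 CPM with MYC off. The 3 levels did not overlap, and Eif1a was 6.22-fold higher with MYC on than with MYC off (log2 fold change 2.64 ± 0.08, edgeR adjusted p = 5.5e-13). Its X-linked paralog Eif1ax was counted at 131, 139.9 and 120.1 CPM with MYC on, 113, 104 and 106 CPM at the intermediate level and 79.5, 79.5 and 75.5 CPM with MYC off. These libraries fell in the same order without overlap, over a smaller range (log2 fold change 0.77 ± 0.07, edgeR adjusted p = 5.1e-08). Whether Eif1a and Eif1ax share reads was not examined. Eif5 (ENSMUSG00000021282, chr12:111538016-111546752, gene coordinates in GRCm38 here and in what follows), the GTPase-activating protein of eIF2, was counted at 368, 359.6 and 303 CPM with MYC on, 249, 235 and 252 CPM at the intermediate level and 177, 183 and 175 CPM with MYC off. It was 1.97-fold higher with MYC on (log2 fold change 0.98 ± 0.07, edgeR adjusted p = 4.8e-09), again with no overlap. Eif1ad, which encodes a protein with an eIF1A-like domain, had a log2 fold change of 0.35 ± 0.06 and shared 15.3% of its exonic bases with the opposite-strand gene Banf1, which the unstranded libraries cannot separate.

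Eif1b, a close relative of Eif1, was the only gene of the 59 called lower with MYC on. Eif1b (ENSMUSG00000006941, chr9:120492232-120495330) was counted at 50.4, 47.7 and 44.1 CPM with MYC on, 59.6, 58.0 and 60.2 CPM at the intermediate level and 65.8, 69.2 and 64.8 CPM with MYC off. Its MYC on libraries were the lowest and its MYC off libraries the highest, with no overlap at any step (log2 fold change −0.46 ± 0.07, edgeR adjusted p = 2.5e-05). Eif1b shared 12.7% of its exonic bases with an antisense gene, D830035M03Rik, which held 912 counts in all libraries against 14946 for Eif1b. Eif1 itself, the main guard of start codon fidelity, was counted at 364, 347 and 342 CPM with MYC on, 445, 365 and 347 CPM at the intermediate level and 401, 372 and 354 CPM with MYC off. Its groups overlapped in all 3 comparisons (log2 fold change −0.07 ± 0.09, edgeR adjusted p = 0.51).

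All 3 subunits of eIF2, the carrier of the initiator tRNA, were more than 2-fold higher with MYC on. Eif2s2 (the β subunit) was counted at 97.9, 96.5 and 77.9 CPM with MYC on, 69.3, 54.3 and 58.1 CPM at the intermediate level and 35.6, 34.2 and 31.7 CPM with MYC off. Eif2s1, the α subunit whose phosphorylation shuts down initiation under stress, was counted at 297, 317 and 258 CPM with MYC on, 255, 193 and 206 CPM at the intermediate level and 139, 128 and 121 CPM with MYC off. Eif2s3x, the X-linked gene for the GTP-binding γ subunit, was counted at 53.4, 50.4 and 47.2 CPM with MYC on, 36.7, 32.7 and 35.6 CPM at the intermediate level and 24.4, 23.7 and 23.5 CPM with MYC off. None of the 3 genes had overlapping groups, and their log2 fold changes for MYC on over MYC off were 1.45 ± 0.11, 1.20 ± 0.10 and 1.11 ± 0.08 (edgeR adjusted p = 8.1e-09, 4.2e-08 and 6.5e-09). The alternative factors Eif2a and Eif2d, which can place a tRNA without eIF2, were also higher (0.79 ± 0.07 and 0.34 ± 0.06).

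The 5 subunits of eIF2B, which recharges eIF2 with GTP, differed widely among themselves, from 0.16 to 2.06 on the log2 scale, and 4 of 5 were called higher. Eif2b3 (ENSMUSG00000028683, chr4:117019402-117087306) (the γ subunit) was counted at 82.7, 78.7 and 75.2 CPM with MYC on, 44.2, 44.4 and 36.7 CPM at the intermediate level and 20.3, 19.0 and 18.6 CPM with MYC off, a 4.17-fold difference without overlap (log2 fold change 2.06 ± 0.09, edgeR adjusted p = 1.9e-11). Eif2b1 (α) was counted at 146, 143 and 139.7 CPM with MYC on, 102, 107 and 109 CPM at the intermediate level and 83.2, 84.6 and 76.7 CPM with MYC off (log2 fold change 0.84 ± 0.06, edgeR adjusted p = 5.3e-09). Eif2b5, the catalytic ε subunit, was counted at 290.2, 282 and 276 CPM with MYC on, 227, 239 and 241 CPM at the intermediate level and 191, 193 and 179 CPM with MYC off (log2 fold change 0.62 ± 0.05, edgeR adjusted p = 5.9e-08). Both kept the order of the MYC levels without overlap. Eif2b4 (δ) was called at 0.31 ± 0.06 and Eif2b2 (β) was not called (log2 fold change 0.16 ± 0.06, edgeR adjusted p = 0.033). Per length, Eif2b3 made up 4.54 ± 0.167% of the summed TPM of the 5 subunits with MYC on, 2.83 ± 0.332% at the intermediate level and 1.56 ± 0.0476% with MYC off (SD, n = 3). TPM are the deposited transcript levels, which correct counts for gene length and sum to 1000000 in a library. These shares did not overlap between groups (exact two-sided permutation test, p = 0.1, the smallest that 3 against 3 allows). Eif2b3 was singled out after the values were seen, as the subunit with the largest fold change. The separation of its share follows from that choice and is no further support.

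Every tested gene of eIF3, the largest initiation factor and the platform of the preinitiation complex, was called higher with MYC on (14 of 14), with log2 fold changes from 0.27 (Eif3h) to 1.62 (Eif3b) and a median of 0.70. Eif3b (ENSMUSG00000056076, chr5:140419328-140443360), a scaffold of the core, was counted at 1289, 1213 and 1184 CPM with MYC on, 726, 805 and 840.4 CPM at the intermediate level and 404, 412 and 414 CPM with MYC off. It was 3.07-fold higher with MYC on (log2 fold change 1.62 ± 0.06, edgeR adjusted p = 2.6e-12), and no library overlapped between levels. Eif3g, an RNA-binding subunit, was counted at 317, 301 and 302 CPM with MYC on, 205, 226 and 215 CPM at the intermediate level and 146, 137 and 126 CPM with MYC off. Its groups did not overlap either (log2 fold change 1.20 ± 0.07, edgeR adjusted p = 3.2e-10). Eif3j2, a second gene for the loosely bound j subunit, was counted at 21.4, 23.1 and 19.6 CPM with MYC on, 16.0, 14.2 and 16.9 CPM at the intermediate level and 11.7, 8.99 and 9.34 CPM with MYC off (log2 fold change 1.12 ± 0.12, edgeR adjusted p = 7.3e-07). Its partner Eif3j1 was counted at 21.0, 19.9 and 17.4 CPM with MYC on, 13.6, 14.5 and 14.3 CPM at the intermediate level and 12.2, 14.0 and 13.3 CPM with MYC off. The MYC on libraries stood above the rest and the other 2 groups overlapped (log2 fold change 0.59 ± 0.09, edgeR adjusted p = 5.1e-05). Eif3j1 shared 19.0% of its exonic bases with the opposite-strand gene Spg11. Whether Eif3j1 and Eif3j2 share reads was not examined.

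The other 10 genes were Eif3i (0.93), Eif3e (0.91), Eif3c (0.81), Eif3a (0.74), Eif3d (0.65), Eif3l (0.65), Eif3m (0.61), Eif3f (0.48), Eif3k (0.27) and Eif3h (0.27), with standard errors from 0.05 to 0.09. The call of Eif3k was lost, with edgeR adjusted p from 0.017 to 0.033, without MYC on replicate 1 or 3 or without MYC off replicate 2 or 3. Eif3d shared 43.3% of its exonic bases with an antisense gene, Gm17638, so its counts are uncertain.

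The subunits differed in proportion to each other. Eif3b was singled out after the values were seen, as the subunit with the largest fold change. Its separation from the median subunit follows from that choice and is no further support. Over the 12 subunits other than j, Eif3b stood at 3.98 ± 0.142 times the median subunit TPM with MYC on, 3.15 ± 0.231 times at the intermediate level and 2.11 ± 0.138 times with MYC off (SD, n = 3), without overlap (exact two-sided permutation test, p = 0.1 for each pair of groups, the smallest possible). The ratio of the highest to the lowest subunit was 13.9 ± 1.38, 10.9 ± 1.73 and 8.09 ± 0.375, where MYC on and MYC intermediate overlapped (exact p = 0.2).

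**Figure D2:**
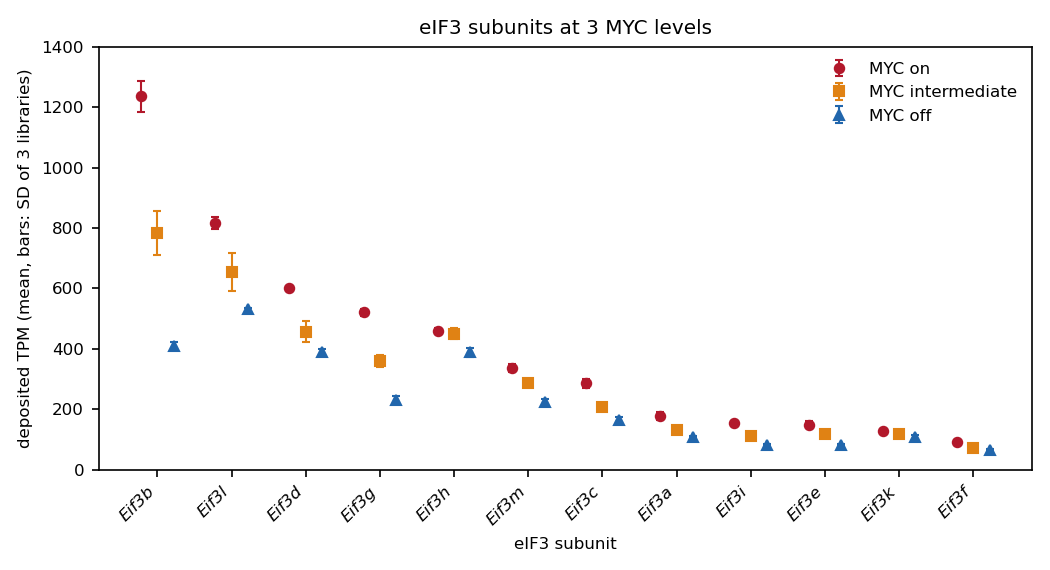
Deposited TPM (vertical axis, mean with SD of 3 libraries as bars) of the 12 eIF3 subunits other than j at the 3 MYC levels, ordered by the MYC on level. Eif3b ran from 1236 ± 50.8 TPM with MYC on to 410.2 ± 11.0 TPM with MYC off, while Eif3h and Eif3k differed less (458 ± 10.4 to 388 ± 13.6 TPM and 127 ± 6.64 to 107 ± 7.22 TPM).

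The genes of eIF4F and its helicase cofactors were divided, with 6 of 10 higher with MYC on and 4 not called. Eif4b, a stimulator of the helicase, was counted at 328, 349 and 341 CPM with MYC on, 209, 209 and 220.3 CPM at the intermediate level and 156, 152 and 144 CPM with MYC off (log2 fold change 1.20 ± 0.06, edgeR adjusted p = 3.5e-11). Eif4a1 (ENSMUSG00000059796, chr11:69666936-69672423), the main helicase, was counted at 1011, 838 and 909.7 CPM with MYC on, 774, 696 and 604 CPM at the intermediate level and 491, 402 and 419 CPM with MYC off (log2 fold change 1.10 ± 0.10, edgeR adjusted p = 1.5e-07). Eif4g1, the main scaffold, was counted at 651, 692 and 699 CPM with MYC on, 507, 499 and 517 CPM at the intermediate level and 343, 366 and 384 CPM with MYC off (log2 fold change 0.93 ± 0.05, edgeR adjusted p = 3.1e-10). In all 3 genes the levels followed the MYC level without overlap. Pseudogenes that match Eif4a1 held 7.49% as many counts as the gene, the highest such share among the tested genes.

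The paralogs of Eif4a1 and Eif4g1 were not called between these groups. Eif4a2 was counted at 96.2, 102 and 87.0 CPM with MYC on, 86.5, 87.2 and 101 CPM at the intermediate level and 86.6, 102 and 91.7 CPM with MYC off. Its groups overlapped (log2 fold change 0.06 ± 0.08, edgeR adjusted p = 0.5). Eif4g2, which encodes DAP5, a scaffold that does not bind eIF4E, was counted at 1947, 1971 and 1761 CPM with MYC on, 2091, 1935 and 2179 CPM at the intermediate level and 1916, 1955 and 1967 CPM with MYC off. These groups overlapped as well (log2 fold change −0.01 ± 0.06, edgeR adjusted p = 0.93). Eif4g3 was counted at 89.4, 94.2 and 94.2 CPM with MYC on, 99.0, 100.4 and 98.4 CPM at the intermediate level and 98.9, 111 and 114 CPM with MYC off. Its MYC on libraries were all under its MYC off libraries, and it lay just outside the threshold (log2 fold change −0.19 ± 0.06, edgeR adjusted p = 0.01). Eif4g3 was called lower with the replicate number as a block (edgeR adjusted p = 0.0097), and also without MYC intermediate replicate 1 or MYC off replicate 1 (edgeR adjusted p = 0.0096 and 0.0035). With the block, 2 of the 59 genes were thus called lower.

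Eif4e, the cap-binding subunit, was counted at 297, 294 and 274 CPM with MYC on, 252, 234 and 246 CPM at the intermediate level and 189, 183 and 179 CPM with MYC off (log2 fold change 0.68 ± 0.06, edgeR adjusted p = 4.0e-08). Eif4e2, whose product represses bound mRNAs, was counted at 256, 249 and 233 CPM with MYC on, 212, 207 and 205 CPM at the intermediate level and 178, 182 and 171 CPM with MYC off (log2 fold change 0.51 ± 0.06, edgeR adjusted p = 8.7e-07). Both followed the MYC level without overlap. Eif4e3 was counted at 31.1, 25.7 and 26.7 CPM with MYC on, 28.6, 27.3 and 26.0 CPM at the intermediate level and 31.6, 31.7 and 26.7 CPM with MYC off. Its groups overlapped (log2 fold change −0.07 ± 0.10, edgeR adjusted p = 0.54). Eif4h, a cofactor like Eif4b, was called with a smaller difference (0.29 ± 0.05). Eif4a3, a relative of Eif4a1 that belongs to the exon junction complex and not to initiation, was counted at 366, 358 and 377 CPM with MYC on, 377, 406 and 417 CPM at the intermediate level and 418, 415 and 394 CPM with MYC off. MYC on was its lowest group, with no call (log2 fold change −0.12 ± 0.06, edgeR adjusted p = 0.064).

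The inhibitors of eIF4E moved unequally. Eif4ebp1 (ENSMUSG00000031490, chr8:27260329-27276674), which encodes the best studied 4E-binding protein, was counted at 82.5, 66.8 and 77.6 CPM with MYC on, 35.3, 34.3 and 33.2 CPM at the intermediate level and 17.1, 15.2 and 14.1 CPM with MYC off. The groups did not overlap, and Eif4ebp1 was 4.99-fold higher with MYC on (log2 fold change 2.32 ± 0.10, edgeR adjusted p = 2.0e-11). Eif4ebp2 was counted at 71.7, 80.3 and 91.6 CPM with MYC on, 73.5, 67.7 and 64.4 CPM at the intermediate level and 64.1, 65.1 and 74.2 CPM with MYC off. All 3 of its groups overlapped (log2 fold change 0.30 ± 0.09, edgeR adjusted p = 0.0083). The call of Eif4ebp2 was lost in 5 of 9 refits that left out a library (MYC on replicate 2 or 3, MYC intermediate replicate 2, MYC off replicate 1 or 2), with edgeR adjusted p from 0.012 to 0.063. It was also lost with library size alone (edgeR adjusted p = 0.017), and its log2 fold change fell to 0.20 without MYC on replicate 3. Eif4enif1, the transporter 4E-T that takes eIF4E to the nucleus and to P-bodies, was counted at 162, 159 and 151 CPM with MYC on, 116, 124 and 122 CPM at the intermediate level and 114, 124 and 135 CPM with MYC off. Its MYC on libraries stood above all others, and the other 2 groups overlapped (log2 fold change 0.38 ± 0.06, edgeR adjusted p = 5.2e-05).

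Per length, the ratio of Eif4e to the sum of Eif4ebp1 and Eif4ebp2 was 0.996 ± 0.108 with MYC on, 1.48 ± 0.0684 at the intermediate level and 1.63 ± 0.0695 with MYC off (TPM ratio, SD, n = 3). The MYC on libraries were below all others (exact two-sided permutation test, p = 0.1 against either group), and the other 2 groups overlapped (p = 0.2). These are transcript ratios chosen after the values were seen, and neither protein nor phosphorylation was measured.

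**Figure D3:**
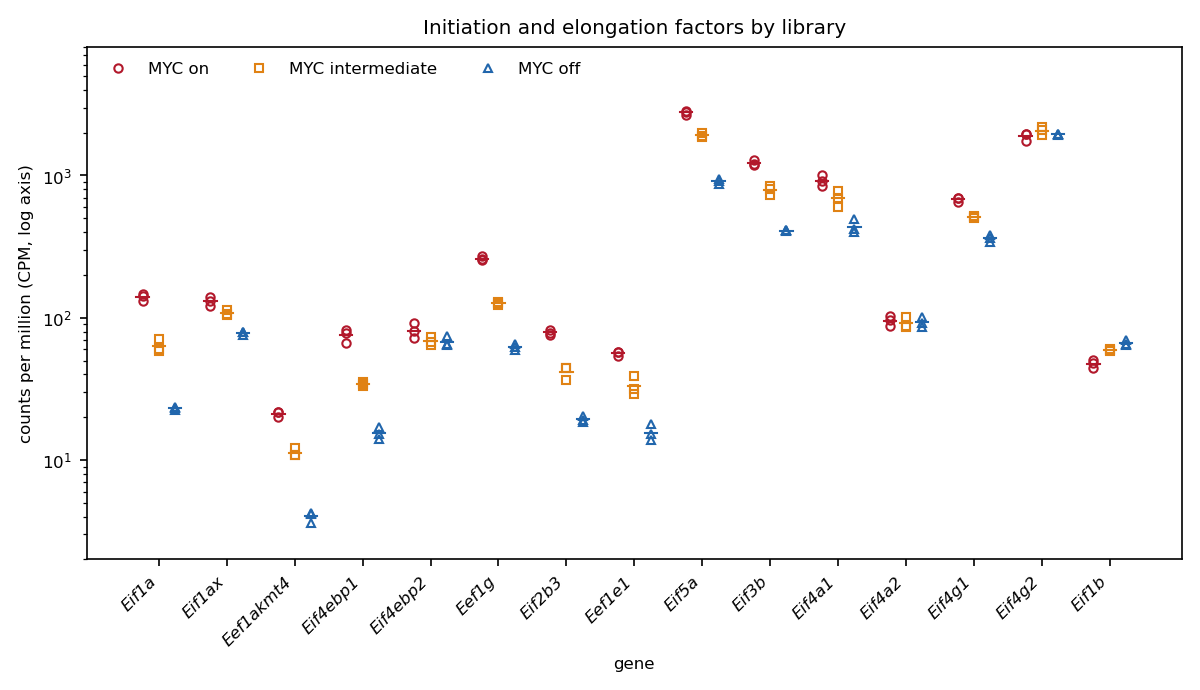
CPM of 15 genes in each library (vertical log axis), with open symbols for single libraries and short lines for group means. Eif1a, Eef1akmt4, Eif4ebp1, Eef1g, Eif2b3, Eef1e1, Eif5a and Eif3b fall stepwise from MYC on to MYC off, the groups of Eif4a2 and Eif4g2 overlap, and Eif1b is highest with MYC off.

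The 2 factors around the large subunit were both higher with MYC on. Eif6, which keeps the subunits apart until the large one is mature, was counted at 332, 302 and 329 CPM with MYC on, 240.5, 270.4 and 249 CPM at the intermediate level and 203, 197 and 195 CPM with MYC off (log2 fold change 0.73 ± 0.06, edgeR adjusted p = 4.5e-08). Eif5b, the GTPase that joins the subunits, was counted at 110.2, 116 and 102 CPM with MYC on, 91.8, 82.5 and 90.2 CPM at the intermediate level and 71.6, 80.4 and 76.2 CPM with MYC off (log2 fold change 0.56 ± 0.07, edgeR adjusted p = 2.0e-06). In both, the 3 groups were separate. Eif5b shared 16.9% of its exonic bases with Rev1 on the opposite strand.

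Eif5a (ENSMUSG00000078812, chr11:69916714-69921958) encodes eIF5A, the only protein known to carry hypusine, and it was the most abundant of the 63 genes per length at every MYC level, at 3927 ± 123, 2672 ± 64.6 and 1279 ± 28.5 TPM (SD, n = 3). This ranking rests on the reads as counted, and reads that fit several places in the genome were not examined. The counts of Eif5a were 2834, 2806 and 2678 CPM with MYC on, 2001, 1869.8 and 1879.9 CPM at the intermediate level and 938, 913 and 874 CPM with MYC off. The groups were far apart, with a 3.12-fold difference between MYC on and MYC off (log2 fold change 1.64 ± 0.06, edgeR adjusted p = 1.7e-12). Eif5a2 was counted at 4.03, 4.38 and 2.96 CPM with MYC on, 4.90, 4.66 and 4.21 CPM at the intermediate level and 3.00, 2.86 and 3.52 CPM with MYC off. These are low levels, and MYC on and MYC off gave no call for it (log2 fold change 0.29 ± 0.17, edgeR adjusted p = 0.15).

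All 5 tested genes of eEF1 were more than 2-fold higher with MYC on. Eef1g (ENSMUSG00000071644, chr19:8967041-8978479), a structural subunit of the exchange complex eEF1B, was counted at 270.1, 253 and 258 CPM with MYC on, 128, 129.5 and 123 CPM at the intermediate level and 65.5, 61.9 and 59.2 CPM with MYC off (log2 fold change 2.10 ± 0.06, edgeR adjusted p = 3.6e-13). Eef1e1, which encodes AIMP3, an eEF1-like part of the tRNA synthetase complex, was counted at 57.2, 57.4 and 53.7 CPM with MYC on, 38.9, 31.7 and 29.3 CPM at the intermediate level and 17.8, 15.3 and 13.8 CPM with MYC off (log2 fold change 1.87 ± 0.12, edgeR adjusted p = 1.4e-09). Eef1d, an exchange subunit, was counted at 254, 234 and 248 CPM with MYC on, 176, 179.7 and 161 CPM at the intermediate level and 103, 89.1 and 90.3 CPM with MYC off (log2 fold change 1.42 ± 0.07, edgeR adjusted p = 1.7e-10). The groups of these genes followed the MYC level and did not overlap. The same order without overlap held for the exchange subunit Eef1b2 (1.32 ± 0.07) and for Eef1a1, the main eEF1A gene (1.22 ± 0.06). Eef1a1 was second to Eif5a in TPM, at 1987 ± 50.3 with MYC on and 866 ± 14.6 with MYC off. Pseudogenes that match Eef1a1 numbered 15, and those that match Eif5a numbered 3. Reads that also fit such copies were not examined, so the ranking of these genes is uncertain.

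Eef2 (ENSMUSG00000034994, chr10:81176631-81182498), the translocase, was counted at 960.4, 949.9 and 1019.6 CPM with MYC on, 686, 771 and 798 CPM at the intermediate level and 676, 678 and 657 CPM with MYC off. It was 1.49-fold higher with MYC on, without overlap (log2 fold change 0.58 ± 0.06, edgeR adjusted p = 4.7e-07). Eef2k, the kinase that inactivates eEF2, was counted at 64.7, 61.3 and 69.4 CPM with MYC on, 38.1, 43.9 and 39.6 CPM at the intermediate level and 28.0, 29.6 and 25.1 CPM with MYC off. Its difference was larger than that of its substrate gene in fold, at 2.42 (log2 fold change 1.28 ± 0.09, edgeR adjusted p = 3.2e-09), and the difference between both genes was not tested.

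Of the 4 tested methyltransferases of elongation factors, 3 were higher with MYC on and 1 was not called. Eef1akmt4 (ENSMUSG00000115219, chr16:20611593-20619011), a lysine methyltransferase of eEF1A, was counted at 19.9, 21.9 and 21.8 CPM with MYC on, 10.8, 10.8 and 12.2 CPM at the intermediate level and 4.18, 4.27 and 3.61 CPM with MYC off. It was 5.39-fold higher with MYC on, second only to Eif1a among the 59 genes, with no overlap (log2 fold change 2.43 ± 0.11, edgeR adjusted p = 2.7e-11). Its exons overlap those of Gm49333 on the same strand (30.7% of bases, 0 counts) and of Alg3 on the opposite strand (8.86%). Eef2kmt, which methylates eEF2, was counted at 19.0, 20.5 and 19.1 CPM with MYC on, 12.6, 13.8 and 13.9 CPM at the intermediate level and 13.6, 13.9 and 12.6 CPM with MYC off. MYC on lay above the other 2 groups, which overlapped (log2 fold change 0.58 ± 0.09, edgeR adjusted p = 3.3e-05). It shares 17.6% of its exonic bases with Alg1 on the opposite strand. Eef1akmt1 was counted at 47.3, 49.7 and 47.5 CPM with MYC on, 48.3, 44.5 and 42.1 CPM at the intermediate level and 42.0, 38.7 and 37.1 CPM with MYC off (log2 fold change 0.33 ± 0.08, edgeR adjusted p = 0.0023). Its call was lost without MYC off replicate 2 or 3 (edgeR adjusted p = 0.012 and 0.016). Eef1akmt2 was not called (log2 fold change 0.03 ± 0.09, edgeR adjusted p = 0.8).

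The promoters of these genes were searched for CACGTG, the E-box to which MYC and MAX are known to bind, because most of the tested genes were higher with MYC on. The motif is its own reverse complement, so both strands read the same. Promoter windows of 300 bases (250 before to 50 after each RefSeq start, build GRCm38.p6) were at hand for 47 of the 63 genes. Those without were Eef1akmt1, Eef1akmt3, Eef1d, Eef1g, Eif1a, Eif2b3, Eif3e, Eif3h, Eif3i, Eif3j2, Eif4e1b, Eif4e3, Eif4ebp1, Eif4ebp3, Eif4g2 and Eif6. Eif1a (2.64), Eif4ebp1 (2.32), Eef1g (2.10) and Eif2b3 (2.06) had some of the largest log2 fold changes of the tested genes. They are thus missing from the shares and medians that follow. CACGTG stood in a window of 13 of the 46 tested genes with a window (28.3%), against 1112 of 9387 tested genes (11.8%), 2187 of 27025 genes (8.09%) and 2349 of 32851 windows (7.15%). The 13 genes were Eef1akmt4, Eef2, Eef2k, Eif1b, Eif3a, Eif3f, Eif3k, Eif4a1, Eif4e, Eif4g1, Eif4h, Eif5a and Eif5a2. Of these, 11 were called higher with MYC on, 1 lower and 1 was not called, with a median log2 fold change of 0.68. Of the 33 without the motif 27 were called higher and none lower, with a median of 0.62. A match describes letters only, and binding was not measured. The stretches around the motif (capitals, RefSeq, 5′ to 3′ on the strand of the gene) are given for the genes with a match that changed most (Eef1akmt4, Eif5a, Eef2k), for the main helicase (Eif4a1), for the gene called lower (Eif1b) and for the gene not called (Eif5a2, with 2 motifs), at 92, 74, 31, 189, 24 and 117 bases before a RefSeq start. The stretch of Eif1b lies in an annotated exon of that gene. The stretch of Eef1akmt4 lies within Alg3 on the opposite strand. The stretch of Eif5a lies within the annotated span of Eif5a, since the gene has more than 1 start.
Eef1akmt4 (chr16:20611482-20611541, plus strand): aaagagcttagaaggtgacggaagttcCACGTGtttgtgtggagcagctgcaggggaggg
Eif5a (chr11:69921428-69921487, minus strand): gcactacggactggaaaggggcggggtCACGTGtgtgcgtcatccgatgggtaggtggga
Eef2k (chr7:120842771-120842830, plus strand): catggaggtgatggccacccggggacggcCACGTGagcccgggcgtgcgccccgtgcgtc
Eif4a1 (chr11:69672580-69672639, minus strand): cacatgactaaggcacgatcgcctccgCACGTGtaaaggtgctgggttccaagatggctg
Eif1b (chr9:120492570-120492599, plus strand): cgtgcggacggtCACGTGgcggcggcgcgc
Eif5a2 (chr3:28781133-28781192, plus strand): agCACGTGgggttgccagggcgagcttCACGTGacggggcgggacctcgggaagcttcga

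Many mRNAs of the translation machinery are known to begin with a C followed by a run of pyrimidines, the mark of mRNAs under control by mTOR and LARP1. A RefSeq start with C and at least 4 further pyrimidines was found for 2 of the 46 tested genes with a window (4.35%), and for 3.05% of all tested genes with a window. The 2 genes, Eif2s3x and Eif3f, are shown with the run of 11 pyrimidines from the start base in capitals, and they had log2 fold changes of 1.11 and 0.48. Eef1a1, Eef2, Eef1b2 and Eif4b had no such RefSeq start, and Eef1d, Eef1g, Eif3e and Eif3h had no window. RefSeq starts can lie some bases away from the starts used in these cells, which were not measured. A start placed some bases off would hide a match, so the search cannot tell how many of these mRNAs begin with such a run.
Eif2s3x (chrX:94212636-94212659, minus strand): gcattttcCTTTTCTCTCCgagca
Eif3f (chr7:108934407-108934430, plus strand): taggctctCTCTCTTTCTCggcaa

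Ratios within a library, which do not depend on how libraries are scaled, were used to compare paralogs. In each of 10 pairs the log2 ratio of counts differed between MYC on and MYC off without overlap, 9 toward the first gene named with MYC on and 1 (Eif3j1 over Eif3j2) away from it. Of all genes tested, 32.8% were themselves higher and 37.2% lower without overlap, and ratios of other gene pairs were not examined. Eif4e and Eif4g1 each stood first in more than 1 pair. The pairs and the order within them were set with earlier results of these data known. An exact two-sided permutation test gave p = 0.1 for each pair, the smallest that 3 against 3 libraries allow and unchanged by Benjamini-Hochberg adjustment over the 10 pairs, so no pair could pass 0.05. For Eif1a over Eif1ax the log2 ratios were 0.12, 0.07 and 0.13 with MYC on, −0.67, −0.78 and −0.87 at the intermediate level and −1.78, −1.75 and −1.75 with MYC off. Eif1a thus held 66.3 ± 0.505%, 51.7 ± 1.69% and 35.1 ± 0.339% of the TPM of the pair at the 3 levels (SD, n = 3). It was the larger part with MYC on and the smaller with MYC off. Reads that could fit both genes of a pair were not examined for any of the 10 pairs, and such reads could alter the split. For Eif4ebp1 over Eif4ebp2 the log2 ratios were 0.20, −0.27 and −0.24, −1.06, −0.98 and −0.96 and −1.91, −2.10 and −2.40 in the same order. The share of Eif4ebp1 was 71.0 ± 3.65%, 56.9 ± 0.904% and 37.6 ± 3.98% of the TPM of the pair, and so it too passed from the larger to the smaller part.

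For Eif4a1 over Eif4a2 the log2 ratios were 3.39, 3.04 and 3.39 with MYC on, 3.16, 3.00 and 2.58 at the intermediate level and 2.50, 1.99 and 2.19 with MYC off, where the first 2 groups overlapped. Eif4a1 was the larger part of the pair at every level, at 92.2 ± 1.05%, 90.2 ± 1.91% and 85.1 ± 2.26% of its TPM. For Eif4g1 over Eif4g2 the difference of the log2 ratios, MYC on minus MYC off, was 0.94, and for Eif4g1 over Eif4g3 it was 1.12. The share of Eif4g1 was 33.6 ± 1.99%, 25.7 ± 0.817% and 20.8 ± 0.710% beside Eif4g2. Such shares rest on the gene lengths behind the TPM, which may not be those of the transcripts in these cells. The difference was 1.34 for Eif5a over Eif5a2, 0.76 for Eif4e over Eif4e3, 0.39 for Eif1 over Eif1b and 0.18 for Eif4e over Eif4e2. For Eif3j1 over Eif3j2 it was −0.54, and this ratio did not separate MYC on from MYC intermediate (−0.03, −0.21 and −0.17 against −0.23, 0.03 and −0.25). Reads that could fit both of these genes were not examined, so the split between them is uncertain.

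**Figure D4:**
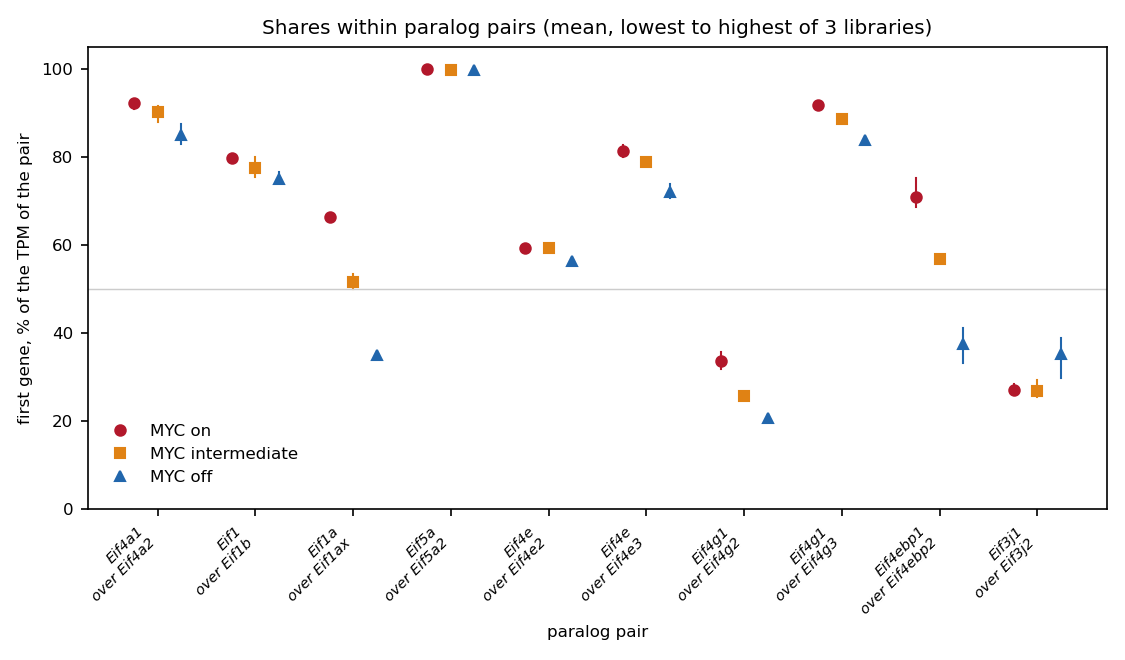
Share of the first gene of each of 10 paralog pairs in the summed TPM of the pair (vertical axis, percent), with symbols for the mean and bars from the lowest to the highest of 3 libraries. Eif1a and Eif4ebp1 pass from above to below the grey line at 50% between MYC on and MYC off, and the share of Eif3j1 is the one that is higher with MYC off.

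The intermediate level allowed the difference to be split into 2 steps. From MYC on to MYC intermediate, 39 of 59 genes (66.1%) were called higher with MYC on and 1 lower (Eif1b, −0.33 ± 0.07), against 17.2% of all genes tested called higher, 17.4% lower and 34.6% in either direction. From MYC intermediate to MYC off, 39 of 59 were called higher at the intermediate level and none lower, against 14.7% and 9.95% of all genes tested (24.7% together). Eif1b was at −0.12 ± 0.07 in this step (edgeR adjusted p = 0.17). Differences over 2-fold were called for 3 of the 59 in the first step and 7 in the second, against 3.03% and 2.84% of all genes tested. The median log2 fold changes were 0.37 and 0.39, against −0.01 for all genes tested in either step. The libraries were higher without overlap for 44 of the 59 in each step, against 27.6% and 21.0% of all genes tested. They were lower without overlap for 3 in the first step and 1 in the second, against 26.0% and 26.6%. Both steps share the MYC intermediate libraries, so their values are given side by side and not as a correlation.

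In both steps 35 genes were called higher, among them all 5 of eEF1, all 3 subunits of eIF2, Eif1a, Eif4ebp1 and Eif5a. Eef2, Eef2kmt, Eif3j1 and Eif4enif1 were called higher in the first step alone, with 0.37, 0.53, 0.45 and 0.37 in the first and 0.21, 0.05, 0.15 and 0.00 in the second. Eif2b4, Eif3h, Eif3m and Eif5a2 were called in the second step alone, with 0.08, −0.01, 0.19 and −0.31 in the first and 0.23, 0.27, 0.41 and 0.60 in the second. None of these 8 genes was off the midpoint between its MYC on and MYC off levels, so a difference between their steps was not shown.

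Several of these calls lay near the threshold and were lost when a library was left out. In the first step, Eif1ax, Eif2s1, Eif4e and Eif4e2 were not called without MYC on replicate 1 or 2 or MYC intermediate replicate 2 or 3 (edgeR adjusted p from 0.0106 to 0.0261). Eif4a1 was not called without MYC on replicate 1 or 3 or MYC intermediate replicate 2 or 3 (0.0146 to 0.0308), and Eif3j2 without MYC on replicate 1 or 2 or MYC intermediate replicate 1 or 2 (0.0103 to 0.0355). Eif3e was not called without MYC on replicate 1 or 2 or MYC intermediate replicate 2 (0.0112 to 0.0213), nor Eif5b without MYC on replicate 2 (0.0104), while Eif3f was called without MYC on replicate 2 or MYC intermediate replicate 1 (0.00666 and 0.00921). In the second step, Eif5a2 lost its call in 7 of 9 refits, all but those without MYC on replicate 3 or MYC intermediate replicate 3 (0.0111 to 0.0404). It was also not called with RLE size factors, library size alone, at least 1 CPM in 3 libraries, DESeq2 or the replicate block (adjusted p from 0.0101 to 0.0163), and so was called in 6 of 18 fits. With library size alone, Eif2b4 and Eif5b were not called in the second step either (edgeR adjusted p = 0.0134 and 0.0214). Eif3m was called in the first step as well with RLE size factors, library size alone, DESeq2, the replicate block or only the 6 libraries compared (adjusted p from 0.0059 to 0.00966). Eif2b4 was not called in the second step without replicate 2 or 3 of MYC intermediate or MYC off (0.0152 to 0.0317), Eif5b without replicate 1 or 3 of either group (0.0158 to 0.0238) and Eif3h without MYC off replicate 3 (0.0135). In the same step, Eef1akmt1, Eif1ad, Eif3k and Eif4h were called without MYC off replicate 1 (0.00373 to 0.00956), and Eef2 without that library or MYC intermediate replicate 1 (0.00211 to 0.00939). Eif4h was also called there with no count filter, at least 1 CPM in 3 libraries, DESeq2, the replicate block, only the 6 libraries compared or pseudogene counts added (adjusted p from 0.00425 to 0.00995), and Eef2 with no count filter or DESeq2 (0.00183 and 0.00734).

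A contrast that set the intermediate level against the log2 midpoint of the outer groups tested directly whether the steps were unequal. It called 1 of the 59 genes, Eif5a, which stood above its midpoint by 0.30 ± 0.05 (edgeR adjusted p = 0.002), against 1.89% of all genes tested (1.7% above the midpoint). The first step of Eif5a was 0.52 ± 0.06 and the second 1.12 ± 0.06. Without MYC intermediate replicate 2 the call was lost (edgeR adjusted p = 0.012), and without MYC off replicate 1 Eef1d was called as well (edgeR adjusted p = 0.0094). The position of the intermediate level, the first step as a share of the whole log2 difference, had a median of 0.395 (range 0.317 to 0.552) over the 19 genes called more than 2-fold higher with MYC on. It was 0.474 over the 1517 genes so called in the whole table and 0.192 for hMYC.

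**Figure D5:**
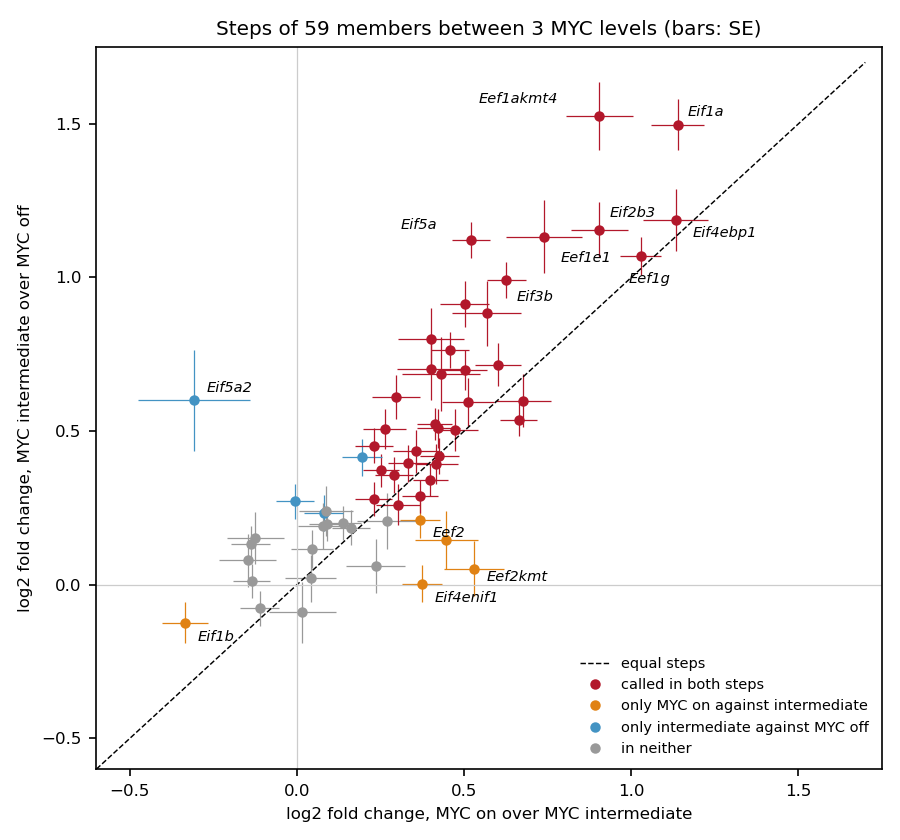
Log2 fold change of MYC on over MYC intermediate (horizontal axis) and of MYC intermediate over MYC off (vertical axis) for the 59 tested genes, with standard errors as bars and a dashed line for equal steps. Red points (35) were called in both steps, orange points in the first alone, blue points in the second alone and grey points (15) in neither; Eif5a lies above the line, at 0.52 and 1.12.

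Taken as a sum, the 63 genes held 19558, 19060.0 and 18687 CPM with MYC on, 15253, 15031 and 15359 CPM at the intermediate level and 11599, 11401 and 11168 CPM with MYC off. These sums came to 1.91%, 1.52% and 1.14% of all counts and did not overlap (exact two-sided permutation test, p = 0.1 for each pair of groups, the smallest possible). The sum was 1.68 times as high with MYC on as with MYC off, 1.26 times over the first step and 1.34 times over the second. Like the fold changes, these sums are relative to the RNA counted in each library, and amounts per cell were not measured.

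The makeup of the sum shifted as well, as shares of the summed TPM of the 63 genes (mean ± SD, n = 3, for MYC on, MYC intermediate and MYC off). Eif5a held 20.0 ± 0.366%, 17.8 ± 0.704% and 11.6 ± 0.0881%, Eef1a1 held 10.1 ± 0.104%, 9.40 ± 0.513% and 7.86 ± 0.0774% and Eif3b held 6.30 ± 0.143%, 5.20 ± 0.368% and 3.72 ± 0.151%, so that their shares were lower at lower MYC. The share of Eef2 was 5.05 ± 0.272%, 4.98 ± 0.376% and 6.12 ± 0.106%. Eif4g2 held 3.20 ± 0.163%, 4.48 ± 0.239% and 5.81 ± 0.245% and Eif4a3 held 2.97 ± 0.118%, 4.15 ± 0.202% and 5.85 ± 0.0682%, genes with higher shares at lower MYC whose own levels gave no call. In TPM the order of the 4 leading genes with MYC on was Eif5a, Eef1a1, Eif3b and Eef2, each apart from the next by more than the SDs. With MYC off it was Eif5a, Eef1a1, Eef2 and Eif4a3, and Eif4a3 (645 ± 13.9 TPM) and the next, Eif4g2 (641 ± 18.2 TPM), did not differ beyond their spread. Reads that fit several genes and the lengths of the transcripts in these cells were not examined, and both bear on these orders.

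Genes that act on these factors, grouped in lists of the pathway, were read against the same background (27.4% of all genes called higher with MYC on and 27.5% lower, median −0.03). All 7 genes for hypusination of eIF5A and for the polyamines it needs were higher with MYC on, with a median log2 fold change of 1.72. The largest were Srm, the spermidine synthase (5.81 ± 0.08), Odc1, the first enzyme of polyamine synthesis (2.15 ± 0.07), and Amd2, a near-identical copy of the S-adenosylmethionine decarboxylase gene Amd1 with which it may share reads (1.81 ± 0.24). The hypusination enzymes Dhps and Dohh themselves were at 0.60 ± 0.08 and 0.81 ± 0.11. Of the 7 genes for diphthamide, the modified histidine of eEF2, 6 were higher and Dnajc24 was not called (median 0.84), led by Dph1 (2.91 ± 0.11), Dph5 (1.45 ± 0.08) and Dph2 (1.44 ± 0.07).

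Of 8 tested genes for termination, recycling and ribosome rescue, 7 were higher and 1 was lower (median 0.86). They were led by Abce1, the ATPase that splits ribosomes (1.53 ± 0.06), Denr, a partner of MCTS1 in recycling (0.99 ± 0.08), and the release factor Etf1 (0.95 ± 0.09), and the gene called lower was Mcts2, a retrocopy of Mcts1 with which it may share reads (−0.91 ± 0.19), at 2.79 to 5.27 CPM in the group means. Among 10 mitochondrial translation factors, 9 were higher and Mtrf1l was not called (median 0.67), led by the elongation factor Gfm1 (1.19 ± 0.06), the exchange factor Tsfm (1.12 ± 0.07) and the initiation factor Mtif3 (0.89 ± 0.06).

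The kinases and phosphatase subunits of eIF2 were listed together with Impact and Gcn1l1, which are neither. The genes of this list were mixed, with 5 of 8 higher, 1 lower and 2 not called (median 0.62). The 2 not called were the phosphatase subunit genes Ppp1r15a (−0.04) and Ppp1r15b (0.09), and Gcn1l1 was called higher (0.62 ± 0.09). Impact, an inhibitor of the kinase GCN2 (0.81 ± 0.13), Eif2ak2, the kinase PKR (0.65 ± 0.09), and Eif2ak4, GCN2 itself (0.65 ± 0.09), led those that were higher, and Eif2ak3, the kinase PERK of the endoplasmic reticulum, was lower (−0.44 ± 0.07). The 20 poly(A)-binding proteins, helicases and regulators of eIF4F were split between 8 higher, 5 lower and 7 not called (median 0.12). Larp1, a repressor of mRNAs with a pyrimidine start (1.98 ± 0.08), Bzw2, a mimic of eIF5 (1.77 ± 0.06), and Pabpc1, the main poly(A)-binding protein (1.73 ± 0.06), were the highest. The 5 lower ones were the eIF4E kinases Mknk2 (−0.56 ± 0.07) and Mknk1 (−0.34 ± 0.09), Paip2b (−0.40 ± 0.07), the S6 kinase gene Rps6kb2 (−0.37 ± 0.07) and Pdcd4, an inhibitor of eIF4A (−0.37 ± 0.10). The other S6 kinase gene, Rps6kb1, was called higher (0.89 ± 0.07). Its mean with MYC on was 203 CPM, against 32.1 CPM for Rps6kb2. Of the selenocysteine factors, Eefsec was lower (−0.19 ± 0.05) and Secisbp2 was not called.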

How the data were processed

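RNA of 9 libraries (RNeasy extraction, SMART-Seq v4 cDNA primed with oligo(dT), Nextera XT, not stranded) was analysed in 3 groups of 3, taken from the labels. Per the submitters' processing notes, reads were trimmed with cutadapt 1.16, aligned to mm10 with STAR 2.5.4b and assigned to genes with featureCounts. The annotation release and strand setting are not given in the sources used here. The deposited counts are whole reads per gene for each library, made by the authors without normalization. The deposited TPM values are counts over gene length, scaled by the authors to a common total. They were used here for levels between genes and for shares and ratios within a library, which were also compared between MYC levels. They also served as an alternative for the summed level. Of the 53380 gene identifiers, 53274 matched GENCODE M21, which gave symbols and coordinates.

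Counts were tested with edgeR 4.0.16 (R 4.3.3): filterByExpr, TMM scaling, all 9 libraries in 1 quasi-likelihood fit, two-sided F tests and Benjamini-Hochberg adjustment over the 14098 genes tested, with calls at 0.01. Standard errors were derived from F. Totals of 18705516 to 39678799 counts set the precision. Single quantities per library were compared by exact two-sided permutation tests (scipy 1.17.1, Python 3.11.15). Figures were drawn with matplotlib 3.10.9, and pseudogenes were matched with blastn 2.17.0 (90% identity over at least 50% of the pseudogene).

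Members, roles, lists and tests were chosen with earlier results of these data known. Named with all libraries were, in each of 12 roles, up to 3 called genes with the largest fold change and a mean of at least 5 CPM in a group, every gene called lower, and both genes of each paralog pair. Genes with no call for MYC on over MYC off were named with their fold change. In each pathway list, up to 3 called genes and every called gene against the majority were named. Other genes given by fold change alone, TPM shares and ratios within complexes were added after the values were seen. Alternatives were RLE scaling, library size alone, no count filter, at least 1 CPM in 3 libraries, DESeq2 1.42.0, only the libraries compared, pseudogene counts added, the replicate number as a block and each library left out. Over 9944 genes, deviations from the group mean in same-numbered MYC on and MYC off libraries correlated at 0.38, 0.25 and 0.22. The values were 0.13, −0.18 and −0.16 for MYC on and MYC intermediate and 0.37, 0.03 and 0.08 for MYC intermediate and MYC off. Libraries of unlike number were not compared, so these values cannot decide whether the replicate numbers pair.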

Additional observations from a re-analysis of the deposited data

How the results depend on the processing

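The number of genes higher with MYC on than with MYC off was 46 to 49 with each library left out and 48 to 49 under the other alternatives. For the first step these ranges were 32 to 39 and 39 to 41, and for the second 35 to 42 and 36 to 41. None of the log2 fold changes of the 59 genes that had been called changed sign. Genes lower with MYC on than with MYC off numbered 2 in place of 1 with library size alone, with at least 1 CPM in 3 libraries and with the replicate block (Eif1b and Eif4g3), and 1 to 2 with each library left out. The block changed no other call between MYC on and MYC off. In the steps, where same-numbered libraries correlated unevenly, it added Eif3f and Eif3m to the first and Eif4h to the second and removed Eif5a2 from the second. Genes off the midpoint numbered 4 with no count filter (Eef1d, Eif2s1, Eif3b and Eif5a) and 0 to 2 with each library left out. The cause of these changes was not tested. The summed level differed between MYC on and MYC off by 0.75 on the log2 scale, and by 0.79 with RLE-scaled CPM and 0.83 with deposited TPM. Over the first step it differed by 0.33, and by 0.38 with TPM, and over the second by 0.42, and by 0.46 with either TMM-scaled or RLE-scaled CPM. The difference for hMYC was 8.30 to 8.50 with each library left out. With too few counts, Eif4ebp3 and Eef1akmt3 were left out by the count filter.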
